A study of Mus musculus with 32 samples.

Results

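The mTOR regulator Ddit4l and 9 other genes of the mTOR pathway, Ddit4, Sesn1, Sesn2, Sesn3, Deptor, Mtor, Rptor, Tsc1 and Tsc2, were followed across the striatum of 32 mice. The genes were listed by symbol, except that Ddit4l was chosen by its measured counts, as the gene lowered most clearly when zQ175 was set against wild-type. Its values in that comparison are therefore descriptive and carry no test. The list held 10 of the 54532 genes in the count table. All 10 passed the filter on low counts, which kept 16610 genes.

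The study crossed zQ175 mice, which carry an expanded CAG repeat knocked in to the Huntington's disease gene Htt, with mice lacking the mismatch repair gene Msh3, to ask whether Msh3 loss alters the striatal phenotype. Striatal RNA was sequenced at 6 months of age from 4 genotypes, zQ175, zQ175:Msh3-/-, Msh3-/- and wild-type (n = 8/genotype). Each genotype had 4 males and 4 females, except zQ175:Msh3-/-, which had 5 males and 3 females. The genotypes were bred as littermates on a C57BL/6J background, and the Msh3-/- mice came from a line made by CRISPR-Cas9 editing that deletes only part of the gene. The libraries came from whole dissected striatum, so that fewer cells of a type and less RNA per cell cannot be told apart.

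The kinase mTOR, the product of Mtor, acts in a pair of complexes that couple growth factors, amino acids and energy to protein synthesis, autophagy and cell growth. Raptor, the product of Rptor, is the defining subunit of mTOR complex 1. Tsc1 and Tsc2 encode the complex that turns off Rheb, the small GTPase that activates mTOR complex 1. Ddit4 and Ddit4l encode REDD1 and REDD2, stress-induced proteins that inhibit the kinase through the TSC complex, the sestrins restrain it when amino acids are scarce or p53 is active, and Deptor binds the kinase itself as an inhibitor. Apart from Mtor and Rptor the members thus encode inhibitors of the pathway. The files hold mRNA, and mTOR activity was not measured.

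The deposited counts summed to between 12359347 and 25030335 reads per mouse. Values per mouse are given as counts per 1000000 reads (CPM) with TMM normalization. The labels were checked first on Msh3. It was at 22.8 to 27.5 CPM in zQ175 mice and at 11.1 to 14.2 in zQ175:Msh3-/- mice, and at 22.9 to 27.5 in wild-type against 10.4 to 13.6 in Msh3-/- mice, so that the genotypes did not overlap. Of 14 markers of spiny projection neurons, the main cell type of the striatum, 13 were called lower in zQ175:Msh3-/- than in Msh3-/- mice, with a median log2 fold change of -0.74, and the lowest mean of any of the 14 in any genotype was 91.8 CPM. Markers of cortical excitatory neurons, such as Slc17a7 and Tbr1, were present in amounts that differed between mice, and their summed level ran from 63.7 to 474 CPM in Msh3-/- and from 148 to 682 CPM in zQ175:Msh3-/- mice, with a median log2 fold change of 0.61 over the genes. Of these 6 cortical genes 0 were called by edgeR, as of the 6 oligodendrocyte, 6 astrocyte and 6 microglial markers. At an unadjusted p under 0.05 there were 0, 2, 4 and 5 of them, and 1 oligodendrocyte, 3 astrocyte and 4 microglial markers were lower at an adjusted p under 0.05 by less than 1.2-fold. Of the 5 endothelial markers Ly6c1 alone was called lower, and of 7 interneuron markers Chat, Slc5a7 and Th were.

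Ddit4l (ENSMUSG00000046818) lies on the plus strand of chromosome 3, at chr3:137621612-137628333 on GRCm38.p6, and no other annotated gene overlaps it. Ddit4, its paralogue, lies on the minus strand at chr10:59949669-59951834. RefSeq promoter windows, of 250 bases before to 50 after a start site, were given for 9 of the 10 genes, all but Deptor. The RefSeq start of Ddit4l is inside the GENCODE gene. The bases upstream of it, the last 30 bases of its window, which lie after it, and for comparison the bases upstream of Ddit4 are shown because they belong to the gene on which the results turn and to its closest relative. Capitals mark matches to GGGCGG, the core of a GC box, to CCAAT, or to TATAAA, the TATA box, on either strand.
Ddit4l, chr3:137623422-137623671, plus strand: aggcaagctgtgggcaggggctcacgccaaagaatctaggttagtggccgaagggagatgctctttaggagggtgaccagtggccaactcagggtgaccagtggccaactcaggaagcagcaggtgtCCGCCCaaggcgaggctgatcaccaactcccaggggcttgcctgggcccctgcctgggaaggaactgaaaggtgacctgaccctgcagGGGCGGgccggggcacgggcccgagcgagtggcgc
Ddit4l, chr3:137623692-137623721, plus strand: aggagaggcgggaccTATAAAgcgctctcc
Ddit4, chr10:59951835-59952020, minus strand: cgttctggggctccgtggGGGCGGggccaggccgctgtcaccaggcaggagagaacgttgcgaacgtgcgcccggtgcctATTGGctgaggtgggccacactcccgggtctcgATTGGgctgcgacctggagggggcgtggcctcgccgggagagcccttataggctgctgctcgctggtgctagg
Ddit4l held GGGCGG at positions -123 and -35 from its RefSeq start and TATAAA at 36, and no CCAAT. Of the 9 genes it alone had TATAAA in the window, a match that 13.6% of all 32851 promoters in the table held. GGGCGG was found in 6 of 9 (35.7% of all promoters) and CCAAT in 5 of 9 (37.4%), including Ddit4, Sesn1, Sesn2, Sesn3 and Mtor. Both strands were searched. The E-box CACGTG, the CRE TGACGTCA, the amino acid response element TGATGCAAT and the palindromic glucocorticoid response element were in 0 of 9, and in 7.15%, 1.79%, 0.192% and 0.00913% of all promoters. These are matches of letters and say nothing of binding.

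Levels were compared between genes on the length-normalized scale, as transcripts per 1000000 (TPM) in the 8 wild-type mice. Sesn3 at 90.2 ± 6.38 TPM (SD, n = 8), Ddit4 at 76.0 ± 13.5 and Tsc2 at 69.0 ± 4.18 were the 3 highest members, then Sesn1 at 43.7 ± 2.78. The range of Ddit4 overlapped those of Sesn3 and Tsc2, so that Ddit4 could not be ranked against either. By CPM per kb of exons Ddit4 came first, at 32.9 against 23.0 for Sesn3. Mtor (31.6 to 36.4 TPM), Tsc1 (28.3 to 33.9) and Rptor (28.3 to 32.4) followed, with overlap of Mtor with Tsc1 and of Tsc1 with Rptor. Ddit4l came next at 21.6 ± 3.15 TPM, then Deptor at 10.3 ± 0.792 and Sesn2 lowest at 5.23 ± 0.746, and these did not overlap their neighbours in the order. Ddit4l ranked 8 of the 10 by TPM and was counted from 60 to 505 reads per mouse over all genotypes. By CPM per kb of exons, Tsc2, Sesn1 and Mtor were close, at 13.3, 13.1 and 12.2. On that scale Rptor, at 5.79, lay below Ddit4l, at 8.21.

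Ddit4l was lower in every mouse that carried zQ175. In wild-type mice it ranged from 19.09 to 28.81 CPM, with a median of 24.8, and in Msh3-/- mice from 18.98 to 25.36 CPM, with a median of 23.4. In zQ175 mice it was at 4.72 to 6.30 CPM, with a median of 5.70, and in zQ175:Msh3-/- mice at 5.60 to 7.64 CPM, with a median of 6.43. The zQ175 and non-zQ175 groups did not overlap, whatever the Msh3 genotype. In the contrast that chose the gene, zQ175 against wild-type, the log2 fold change was -2.08 ± 0.0816 (SE), which left 23.6% of the wild-type level. By adjusted p it stood first among lowered genes, and the next were Penk, the enkephalin precursor, at -1.32 and Scn4b, a sodium channel subunit, at -1.53. By fold alone Ddit4l ranked 14 of 16610. In this contrast 3 of the 10 members, Ddit4l, Sesn3 and Deptor, were past both thresholds of the test used below and lower, and 0 were higher, where 6.89% and 4.70% of all genes were. These counts are a description, since the contrast chose Ddit4l.

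**Figure D1:**
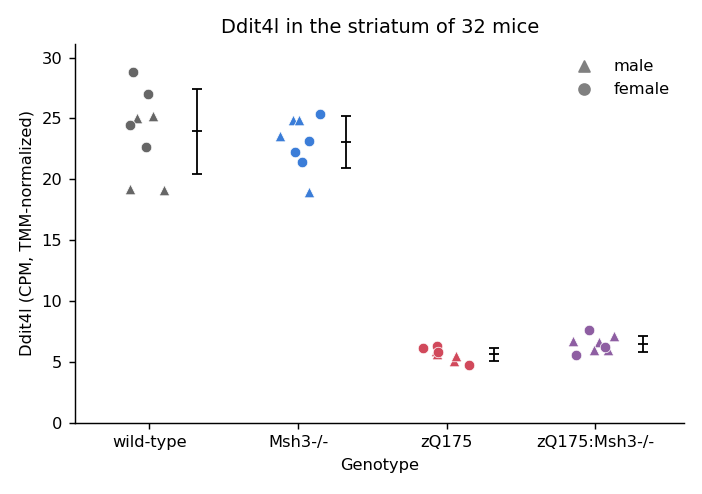
Each point is one mouse, triangles male and circles female, with Ddit4l in TMM-normalized CPM on the y axis and genotype on the x axis; bars to the right give the mean and SD (n = 8/genotype). All zQ175 and zQ175:Msh3-/- mice lie between 4.72 and 7.64 CPM and all wild-type and Msh3-/- mice between 18.98 and 28.81.

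The zQ175 effect on Ddit4l was tested in mice outside the contrast that chose it, as zQ175:Msh3-/- against Msh3-/-. The members were listed with earlier results of these data known, so that this test is not fully independent of the choice. The log2 fold change was -1.83 ± 0.0810 (SE; 95% interval -1.99 to -1.66), with an edgeR quasi-likelihood adjusted p of 7.46e-19 over 16610 genes. The spread in that model came from all 32 mice, which include those of the choice. Fitted to the groups compared alone, edgeR gave -1.83 with an adjusted p of 7.76e-14. The 8 zQ175:Msh3-/- mice were all below the lowest Msh3-/- mouse, at 28.2% of the Msh3-/- level. Such a separation, with every value lower, was seen for 3.64% of all genes and for 1 of the 10 members, Ddit4l. The exact two-sided permutation test gave p = 0.000155, the smallest that 8 mice against 8 allow. Ddit4l ranked 2 by p and 19 by lowest fold among all genes tested. It was called in all 13 alternatives and all 32 exclusions of 1 mouse, from -1.92 without the 8 mice highest in cortical markers to -1.66 on log2(TPM + 1). Beside it, the summed level of the 14 spiny projection neuron markers was 6545 to 8023 CPM in zQ175:Msh3-/- and 10848 to 13786 in Msh3-/- mice, and its part in the Ddit4l difference was not tested.

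Of the 10 members, 2 were called lower in this comparison and 0 higher, at adjusted p under 0.05 and at least a 1.2-fold change, where 5.96% of all genes were called lower. Those were Ddit4l, which was listed because zQ175 lowered it, and Deptor, the only one called among the others. Of all calls across genes, 44.0% were higher (778 against 990 lower), a split that became 68.5% higher on the TPM scale (1523 against 699), and the median of all genes then was 0.0870 log2 against 0.0143. With adjusted p alone, 5 of 10 were lower and 0 higher, against 12.3% and 11.8% of all genes. The median of the members was -0.13 log2, with the median of all genes at 0.01. Ddit4l is in each of these member counts and in the median, so that they only describe the list.

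Deptor, the inhibitor that binds the kinase, was called lower at 82.7% of the Msh3-/- level. In Msh3-/- mice it was at 28.0 to 40.6 CPM, with a median of 38.2, and in zQ175:Msh3-/- mice at 25.98 to 33.5, with a median of 30.05. The groups overlapped, and 2 of 8 zQ175:Msh3-/- mice lay below the lowest Msh3-/- mouse. The log2 fold change was -0.27 ± 0.0663 (edgeR adjusted p = 0.00206; exact permutation p = 0.00591). In zQ175 mice it was at 26.5 to 34.7 CPM against 34.7 to 42.0 in wild-type mice, the highest zQ175 and the lowest wild-type mouse both being at 34.7, and the log2 fold change of -0.32 is given without a test. The call was lost on log2(TPM + 0.1), where the value was -0.20 with a limma adjusted p of 0.0535, and in males alone, at -0.13 with adjusted p = 0.336. It also fell short of 1.2-fold, at -0.26 to -0.25, without zQ175:Msh3-/- female 1 or male 2, or without Msh3-/- female 2, 3 or 4 or male 4. Deviations of Deptor from the genotype means had r = 0.51 with those of the cortical marker sum over 32 mice. Without the 8 mice highest in cortical markers, and with that sum in the model, Deptor was also called.

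The 3 sestrins differed. Sesn3, the most abundant, was at 318 to 369 CPM in Msh3-/- mice, with a median of 347, and at 275 to 332 in zQ175:Msh3-/- mice, with a median of 291. Of these 8 mice, 6 lay below the lowest Msh3-/- mouse. The log2 fold change was -0.20 ± 0.0404 (edgeR adjusted p = 0.000299; exact permutation p = 0.000932), under the 1.2-fold limit. In zQ175 mice Sesn3 was at 282 to 297 CPM and in wild-type at 329 to 406, with no overlap and a log2 fold change of -0.28. In females alone the Sesn3 difference between zQ175:Msh3-/- and Msh3-/- mice was -0.12 log2 (edgeR adjusted p = 0.265). Sesn1, a p53 target, was at 49.9 to 57.6 CPM in Msh3-/- and 42.1 to 51.4 in zQ175:Msh3-/- mice, with a log2 fold change of -0.13 ± 0.0457 (edgeR adjusted p = 0.0295), also under 1.2-fold. Sesn2, the leucine sensor, was at 5.57 to 10.6 CPM and 6.90 to 12.8, overlapping widely, with a log2 fold change of 0.07 (95% interval -0.16 to 0.29, edgeR adjusted p = 0.708). Its sign turned in females alone, at -0.23, so that no direction is given.

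Neither the kinase nor the defining subunit of complex 1 passed the test. Mtor was at 121 to 128 CPM in Msh3-/- and 120 to 137 in zQ175:Msh3-/- mice, and the 95% interval of its log2 fold change was -0.01 to 0.11 (edgeR adjusted p = 0.256). Rptor was at 74.6 to 84.1 and 77.5 to 87.2 CPM, with an interval of -0.02 to 0.12 (edgeR adjusted p = 0.287). A change of 1.2-fold lies outside both intervals. Of the TSC genes, Tsc2, at 116 to 134 and 122 to 137 CPM, had an interval of -0.05 to 0.09 (edgeR adjusted p = 0.722), and Tsc1, at 89.99 to 106 and 84.9 to 95.8 CPM, had a log2 fold change of -0.12 ± 0.0385 (edgeR adjusted p = 0.0213), under 1.2-fold. Tsc2 shares its locus with Pkd1 on the opposite strand, and whether counting used strand is not given in the sources used here, so that reads of these 2 genes may not be told apart. On log2(TPM + 0.1), Sesn1 and Tsc1 no longer passed, with limma adjusted p of 0.351 and 0.782, and Mtor and Tsc2 were at 0.13 and 0.14, with adjusted p of 0.00397 and 0.0254, both under 1.2-fold.

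Ddit4, the paralogue of Ddit4l and a gene induced by stress and glucocorticoids, was at 47.3 to 85.1 CPM in Msh3-/- mice, with a median of 55.3, and at 40.2 to 59.2 in zQ175:Msh3-/- mice, with a median of 49.3. The groups overlapped, with 4 of 8 below the lowest Msh3-/- mouse. The log2 fold change was -0.26 ± 0.113 (edgeR adjusted p = 0.0914), so that it did not pass. With sex in the model it was -0.30 (adjusted p = 0.0120) and was called. In zQ175 and wild-type mice it was at 40.6 to 54.1 and 39.8 to 70.8 CPM, a log2 fold change of -0.24 given without a test. After removal of the genotype means, Ddit4 had r = 0.73 with Nfkbia, 0.55 with Sgk1, -0.65 with the receptor gene Nr3c1 and -0.01 with Fkbp5 among the 12 glucocorticoid-responsive genes. With the other 8 it was between -0.43, for Mt1, and 0.28, for Cdkn1a, among them Mt2 at -0.40, Zbtb16 at -0.29, Klf9 at -0.24 and Per1 at -0.14. These values have mixed signs and are a description over 32 mice.

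**Figure D2:**
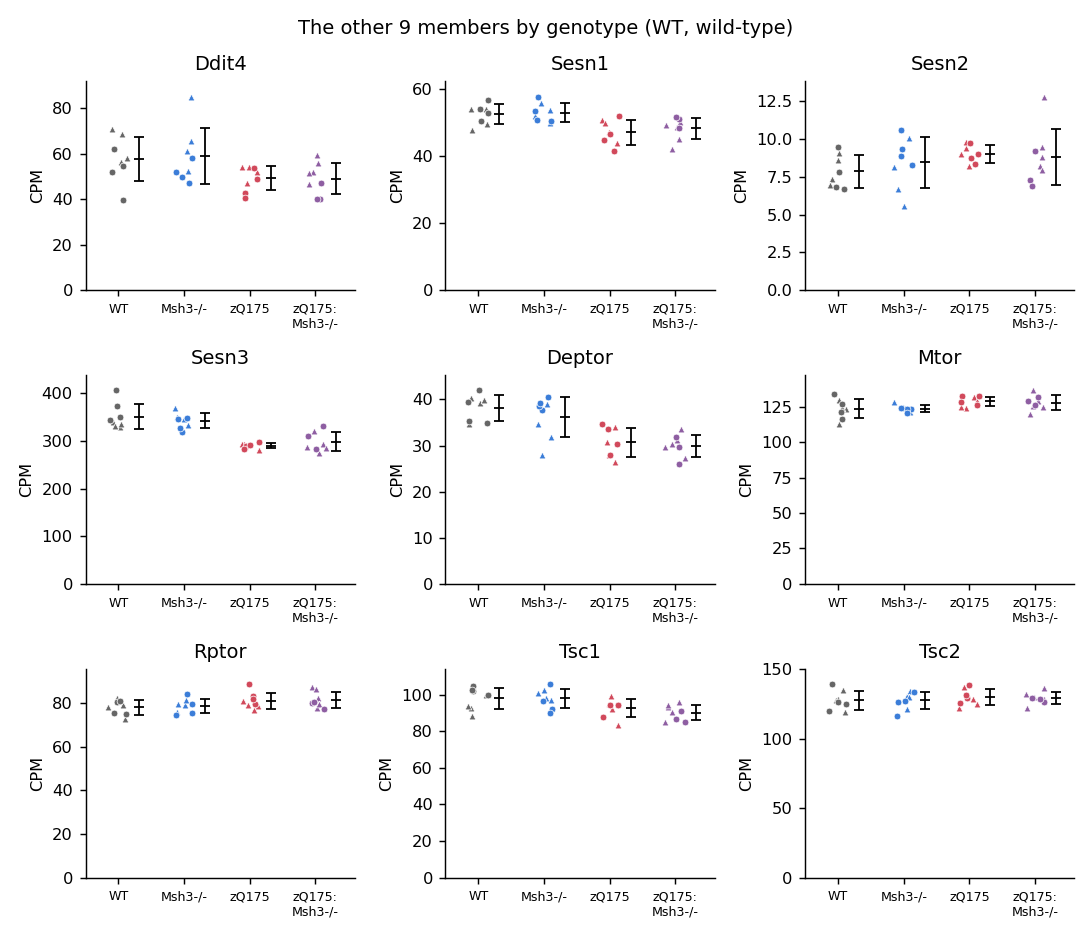
The 9 members other than Ddit4l, each in a panel with TMM-normalized CPM on the y axis from 0 and the 4 genotypes on the x axis; 1 point is 1 mouse, triangles male and circles female, with mean and SD bars. In zQ175 mice Sesn3 lies below all wild-type values, Deptor meets them at 34.7 CPM, and Mtor, Rptor and Tsc2 overlap in all genotypes.

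Loss of Msh3 was compared first in mice with normal Htt. Between Msh3-/- and wild-type mice 0 of 10 members were called by edgeR, where 0.00602% of all genes were, which is 1 gene, Msh3 itself. The log2 fold changes ran from -0.07 to 0.10, with a smallest adjusted p of 0.958, and 0 members had an unadjusted p under 0.05. DESeq2 also called 0. For Ddit4l, whose choice used the wild-type mice, the value of -0.05 is a description.

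Between zQ175:Msh3-/- and zQ175 mice 0 of 10 were called by edgeR and by DESeq2, against the same 0.00602%. The 9 members other than Ddit4l were between -0.04 and 0.04, and 0 of these 9 had an unadjusted p under 0.05, as 3.70% of all genes had. The zQ175 mice are among those whose low Ddit4l counts chose the gene, so that a higher value in any other group was favoured by the choice, and its difference is a description without a test. It was 0.20 log2 higher in zQ175:Msh3-/- mice, with overlap. Over the 13 alternatives the difference ran from 0.042, without the 8 mice highest in cortical markers, to 0.23, in males alone. That removal was uneven and left 8 wild-type, 6 Msh3-/-, 5 zQ175 and 5 zQ175:Msh3-/- mice. With the cortical marker sum in the model the Ddit4l difference was 0.21.

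The interaction, the difference of the zQ175 effect between Msh3 genotypes, called 0 of 10 members by edgeR and DESeq2, where 0% of all genes were called, and 0 of the 9 others had an unadjusted p under 0.05. For Ddit4l it is the difference of -1.83 and -2.08, and so holds the contrast that chose the gene. Its value of 0.25 log2, or 0.10 to 0.34 over the 12 alternatives, is given without a test.

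**Figure D3:**
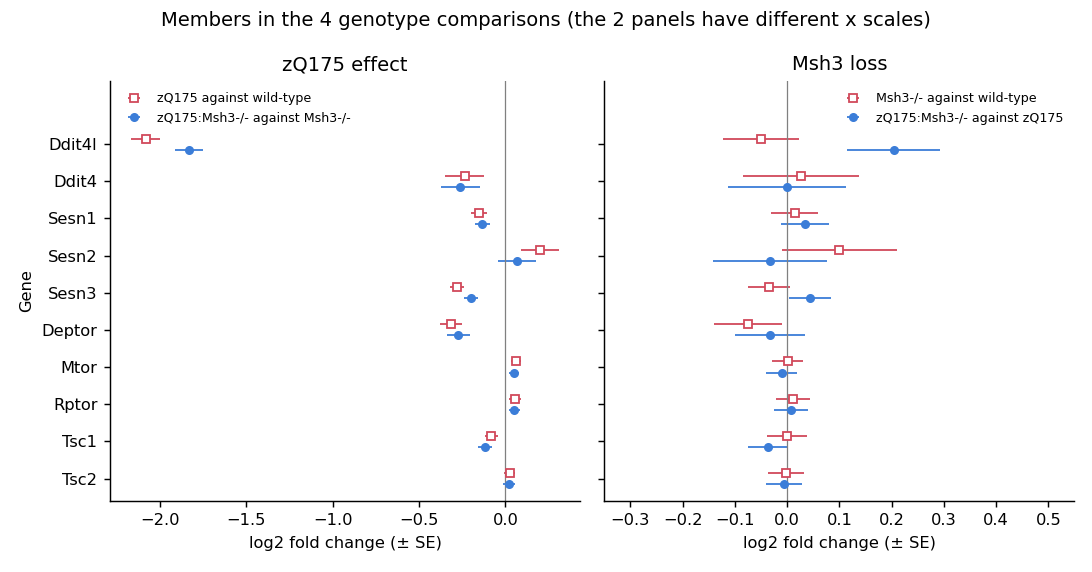
Points are log2 fold changes with their SE for each member, left for zQ175 (open squares against wild-type, filled circles in Msh3-/- mice) and right for Msh3 loss, on different x scales. Ddit4l lies at -2.08 and -1.83 on the left, and the members on the right lie within -0.07 and 0.20.

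Between the sexes 1 member was called. Ddit4 was lower in females, with a female minus male log2 difference of -0.28 ± 0.0619 (genotype and sex in the model, edgeR adjusted p = 0.0416), where 0.0602% of all genes (10) were called lower in females and 0.108% (18) higher. In wild-type mice males were at 56.2 to 70.8 CPM and females at 39.8 to 62.0. In Msh3-/- mice these were 52.4 to 85.1 and 47.3 to 58.3, in zQ175 mice 47.3 to 54.1 and 40.6 to 53.6, and in zQ175:Msh3-/- mice 46.5 to 59.2 and 40.2 to 47.2. Females were lower in 4 of 4 genotypes, with log2 differences of -0.29, -0.33, -0.16 and -0.32 and overlap of the sexes in each genotype. The call held with DESeq2 (adjusted p = 0.00541) but not without the count filter (adjusted p = 0.0911), and 21 of the 32 single-mouse exclusions lost it, between -0.30 and -0.24. The sexes of Ddit4l differed by 0.08 ± 0.0559 log2 (adjusted p = 0.680).

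**Figure D4:**
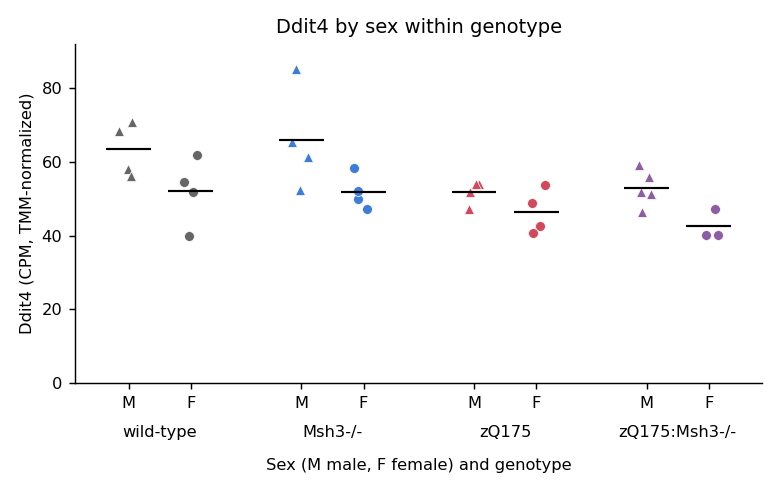
Ddit4 in TMM-normalized CPM for each mouse, males and females side by side within each genotype; bars are means. The female mean is below the male mean in all 4 genotypes, and the ranges overlap.

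The wider pathway was examined through 103 genes in 8 lists, all tested. In zQ175:Msh3-/- against Msh3-/- mice, 1 was called higher and 9 lower, where 4.68% and 5.96% of all genes were, and the median of the 103 was 0.01 log2, against 0.01 for all genes. In zQ175 against wild-type, 3 of the 103 were past both thresholds and higher and 9 lower, where 4.70% and 6.89% of all genes were. These counts are a description, since that contrast chose Ddit4l. None of 9 genes of mTOR complex subunits and their partners was called in zQ175:Msh3-/- against Msh3-/- mice (0 of 9 by edgeR and DESeq2). In edgeR 5 had an unadjusted p under 0.05, where 34.9% of all genes had one. At an adjusted p under 0.05 alone 2 were higher and 1 lower, where 11.8% and 12.3% of all genes were. Telo2 encodes a chaperone partner that stabilizes mTOR and related kinases. In that comparison it was at 0.24 (edgeR adjusted p = 0.00377). In zQ175 against wild-type it was at 0.32, past both thresholds. Of 4 genes of the TSC-Rheb switch, Rasd2, which encodes the striatal GTPase Rhes, was at 692 to 886 CPM in Msh3-/- and 471 to 573 in zQ175:Msh3-/- mice, with no overlap, and fell by 0.57 on the log2 scale (edgeR adjusted p = 2.75e-08). Rhebl1, a low-abundance relative of Rheb, was at 2.23 to 3.06 and 2.32 to 4.28 CPM, with overlap, and rose by 0.35 (adjusted p = 0.0375). It was called in 5 of the 13 alternatives, not with DESeq2 or in either sex alone among others, and the call was lost without each of 8 single mice, which were Msh3-/- female 1 or 4 or male 2 or 3, or zQ175:Msh3-/- female 2 or male 1, 3 or 5.

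Of 26 genes of amino acid sensing, 2 were called lower, where 5.96% of all genes were. Rragd, a Rag GTPase, was at 260 to 311 CPM in Msh3-/- and 201 to 247 in zQ175:Msh3-/- mice, without overlap, and fell by 0.35 on the log2 scale (adjusted p = 4.97e-08). Castor1, the arginine sensor, was scarce, at 2.00 to 3.04 and 1.22 to 2.59 CPM, with overlap, and fell by 0.45 (adjusted p = 0.0247). It was not called in 3 of the 13 alternatives, namely each sex alone and log2(TPM + 0.1) without a filter, nor without Msh3-/- male 1 or zQ175:Msh3-/- female 1 or male 3 or 4. In zQ175 against wild-type mice it was at -0.05. Of 20 growth factor and energy genes, the kinase Akt2 was at 148 to 176 and 112 to 139 CPM, without overlap, and fell by 0.37 (adjusted p = 8.62e-07). Of 14 outputs, Sgk1, a kinase activated by mTOR complex 2, was at 62.4 to 159 and 56.0 to 76.3 CPM, with overlap. It fell by 0.57 (edgeR adjusted p = 0.00167). In zQ175 against wild-type mice Sgk1 was at -0.24, not past both thresholds. Its mean was 97.4 ± 30.0 CPM (SD) in Msh3-/- and 78.9 ± 8.36 in wild-type mice.

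Of 10 ATF4-CHOP genes, Trib3, a pseudokinase that binds Akt, was at 0.721 to 2.76 and 0.901 to 1.25 CPM, with overlap, and fell by 0.78 (adjusted p = 0.00635). Atf4 itself was at -0.04 (adjusted p = 0.668). Of 10 p53 target genes, the cell cycle inhibitor Cdkn1a was at 11.2 to 14.3 and 6.69 to 11.5 CPM and fell by 0.57 (adjusted p = 1.14e-05), and Trp53 was at 0.04 (adjusted p = 0.603). Of 12 glucocorticoid-responsive genes 4 were lower and 0 higher, where 5.96% and 4.68% of all genes were. The median of the 12 was -0.20 log2, against 0.01 for all genes. The 4 were Cdkn1a and Sgk1, which other lists share, the clock gene Per1 and the metallothionein gene Mt1. Mt1 was at -0.31 (adjusted p = 7.98e-07). Fkbp5, which encodes a chaperone that the receptor induces, was at -0.06 (adjusted p = 0.556). Each of these adjusted p-values is from edgeR over all genes. On log2(TPM + 0.1), Mt1, Per1 and Trib3 were not called, and Depdc5, Psat1 and Telo2 were. Over the 13 alternatives Per1 and Trib3 were each not called in 6, Mt1 in 3 and Sgk1 in 1, and Rasd2, Rragd, Akt2 and Cdkn1a were called in all 13.

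**Figure D5:**
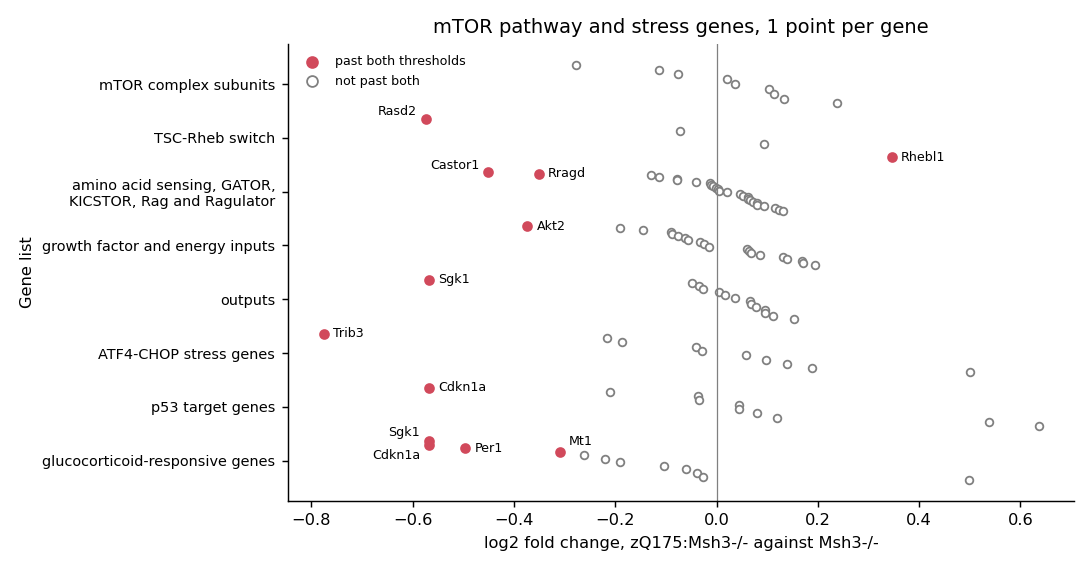
Each point is a gene of a pathway or stress list, with its log2 fold change in zQ175:Msh3-/- against Msh3-/- mice on the x axis and lists on the y axis; filled points passed both thresholds. In 4 lists a single gene is called, and Rhebl1 is the 1 gene called higher.

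Position was one feature the choice of genes did not use. Within 500 kb of Ddit4l, 24 genes were annotated and 7 tested. In zQ175:Msh3-/- against Msh3-/- mice 0 of these 7 were called by edgeR and 2 had an unadjusted p under 0.05, where 34.9% of all genes had one, with log2 fold changes from -0.16 to 0.20. In zQ175 against wild-type their values ran from -0.38, for Emcn, to 0.38. Nearest were, on the side of lower coordinates, Emcn, an endothelial sialomucin, at -0.14, the 1 gene tested there, and on the other the histone variant gene H2afz at -0.08, Dnajb14, an Hsp40 chaperone, at 0.06 and Gm43088 at 0.19. Lamtor3, a Ragulator subunit that lies 290 kb away, was at -0.00031 (edgeR adjusted p = 0.996).

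Across the 32 mice, the genes whose log2 CPM was most like that of Ddit4l were Scn4b (Pearson's r = 0.98), Arpp19 (0.98), Ryr1 (0.98), Penk (0.98) and Adora2a (0.97), and among those most opposed were Sfmbt2 (-0.97), Onecut1 (-0.96), Wt1 (-0.96) and A830036E02Rik (-0.95). The mice share their genotypes, so that these values include the zQ175 difference. Onecut1 and Wt1 were scarce, with wild-type means of 0.0818 and 0.0857 CPM, against 2.65 for Sfmbt2 and 36.9 for A830036E02Rik. Of the members, Sesn3 was most like Ddit4l (0.86), then Deptor (0.73). Once the genotype means were removed, the highest r values were 0.65 for Casp12, 0.62 for Chst2, 0.60 for Ccnf, 0.60 for Smagp and 0.59 for Gm20515, and those of the members were -0.15 to 0.27. Apart from Chst2, at a wild-type mean of 151 CPM, these top genes were scarce. Casp12 was at 0.774, Smagp at 0.973, Gm20515 at 2.74 and Ccnf at 3.33 CPM. Among the members themselves, the deviations of Mtor and Tsc2 were most alike (r = 0.66), and those of Sesn2 and Sesn3 most opposed (-0.51). These are descriptions over 32 mice that share depth and dissection.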

How the data were processed

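Striatal poly(A) RNA of 32 mice was sequenced as paired-end reads of 150 bases. The authors deposited raw read counts of each gene and mouse, as whole numbers, summing to 12359347 to 25030335 per mouse. The authors also deposited a length- and depth-normalized table, named FPKM, whose columns each sum to 1000000, so that its values were treated as TPM. The build GRCm38.p6 is from the submitters' processing notes, and the aligner, counter and strand setting are not given in the sources used here. Positions are from GENCODE M21 and promoters from RefSeq.

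Counts were tested with edgeR 4.0.16 in R 4.3.3 (TMM, filterByExpr, robust quasi-likelihood, 1 model of 4 genotypes, 16610 genes), with Benjamini-Hochberg adjusted p under 0.05 and at least 1.2-fold, the limits of the study's methods. Intervals are 95%. Exact permutation tests enumerated 12870 arrangements in 30 tests and were not adjusted. Alternatives were DESeq2 1.42.0, RLE size factors, no filter, sex in the model, only the groups compared, a replicate block, limma 3.58.1 on log2(TPM + 0.1), with or without a mean TPM minimum of 0.1, and on log2(TPM + 1), each sex alone and each mouse left out. Fold changes on the log2(TPM + pseudocount) scale understate changes of low genes. Methods were tested on simulated data for zQ175:Msh3-/- against Msh3-/- mice, at an adjusted p under 0.05. There edgeR recovered 32% of genes changed 1.2-fold, DESeq2 26% and limma on log2(TPM + 0.1) 20%. Of genes changed 1.5-fold these were 94%, 94% and 90%. Changes near 1.2-fold can thus be missed. At the lowest depth 3 reads are 2.43e-05% of a library, which covers counting error only. Summaries and plots used Python 3.11.15 with pandas 2.3.3, matplotlib 3.10.9, scipy 1.17.1 and numpy 2.4.6.

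The members and the pathway and marker lists were chosen with earlier results of these data known. The genes named were the 10 members, Msh3, up to 2 called genes of each pathway list in each direction, the tested genes nearest Ddit4l (up to 3 on each side), the 5 most and least like it, the 5 most like it after removal of genotype means and the 2 next to it by adjusted p; 1 of the 5 least like it is not reported here. Others named by value or count, such as Klf9, Mt2, Zbtb16, Per1, Atf4, Trp53, Fkbp5, Nfkbia, Nr3c1, Lamtor3, Depdc5, Psat1 and Telo2, were chosen after their values were seen.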

Additional observations from a re-analysis of the deposited data

How the results depend on the processing

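In zQ175:Msh3-/- against Msh3-/- mice, 2 members were called, and 1, Ddit4l, was called with limma on TPM (either pseudocount, with or without a filter) and in males alone. Leaving out each mouse gave 1 to 2. Between the sexes 0 members were called without the filter, where Ddit4 was at -0.28, and 0 to 1 on leaving out each mouse, with Ddit4 at -0.30 to -0.24. The pathway lists had 6 calls in females alone against 10. Over all genes, females alone gave 394 called higher and 673 lower of 16699, against 778 and 990 of 16610. Ddit4l ranked 7 of the members by CPM per kb of exons against 8 by TPM. Sesn2 was at 0.07 and reversed to -0.23 in females alone, -0.10 without the 8 mice highest in cortical markers and -0.0091 with the marker sum in the model, the last 2 added after seeing the data, and -0.028 to 0.12 on leaving out each mouse, negative without Msh3-/- male 2 or zQ175:Msh3-/- male 1. Tsc2 was at -0.00010 without those 8 mice. The cause of these changes was not tested, beyond the fewer mice in the single-sex fits. Members called for Msh3 loss and for the interaction stayed at 0 under all alternatives run.

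With the replicate block, 3 members were called in zQ175:Msh3-/- against Msh3-/- mice, Ddit4 being added at -0.28 (edgeR adjusted p = 0.0371), and 11 pathway genes. Over all 16610 genes, 751 were then called higher and 943 lower, against 778 and 990 without the block. Same-numbered mice had correlated deviations (r over 0.1) in 1 of 7 pairs, from -0.18 to 0.12, so that the numbers were not taken to pair the mice.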

Other observations

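Within each sex, the Ddit4l level was 22.1 ± 3.46 CPM in wild-type males and 25.7 ± 2.73 in wild-type females (SD, n = 4), and 23.1 ± 2.80 and 23.1 ± 1.70 in Msh3-/- males and females. In zQ175 mice it was 5.53 ± 0.346 and 5.74 ± 0.714. In zQ175:Msh3-/- mice it was 6.47 ± 0.507 in the 5 males and 6.50 ± 1.04 in the 3 females. The zQ175 and non-zQ175 mice were apart in both sexes. Among 48 sets of values within a genotype, those of the 10 members, of Msh3 and of the total count, 0 had a mouse that stood apart from the others by Dixon's criterion, where chance gives 2.40. That count depends on the scale and form of the criterion. For Sesn2 in zQ175:Msh3-/- mice, male 1 was at 12.8 CPM, the next mouse at 9.46 and the lowest at 6.90.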
